A study of Rattus norvegicus with 6 samples.

Results

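Hyaluronan and the proteoglycans that stand beside it in the matrix were followed through 10 genes. They were the hyaluronan synthases Has1, Has2 and Has3, the hyaluronan receptor Cd44, the hyaluronidase Hyal2, the large proteoglycan gene Vcan (versican) and the small leucine-rich proteoglycan genes Bgn (biglycan), Dcn (decorin), Lum (lumican) and Fmod (fibromodulin). Their probe sets were those of the deposited table that the platform annotation maps to 1 symbol among these 10. This gave 13 probe sets for 8 genes, out of 31042 probe sets other than controls and 14217 genes in all. Has1 and Has3 had no probe set under their symbols in that annotation and were not analysed here. No filter on low values was used, so all 8 genes entered the test.

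RNA from 2 clonal cell strains was measured on rat Affymetrix arrays, 3 arrays from each. BDEsp-TDECC, below TDECC, is a cholangiocarcinoma (bile duct cancer) strain, and BDEsp-TDESM, below TDESM, is a cancer-associated fibroblastic strain labelled as overexpressing Acta2, the smooth muscle actin of myofibroblasts. Both have the Fischer 344 background and come from tumours grown in young adult male rats whose bile duct had received BDEsp cells, which are cholangiocytes that transformed spontaneously. The labels give every array the same culture text, a 3-dimensional organotypic co-culture in dilute rat type I collagen, and the same treatment text, the TGF-beta inhibitors SB 431542 and LY2157299. Treated and untreated arrays are not distinguished there, and no such comparison was made. Each strain is 1 clone. Whether its 3 arrays hold RNA of independent cultures is not given, and p-values then reflect the spread of these arrays alone, possibly a technical one.

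Hyaluronan is a long unsulfated sugar chain that synthases spin out through the plasma membrane. Cd44 binds it at the cell surface, hyaluronidases cut it, and versican fixes it into larger aggregates. The small leucine-rich proteoglycans sit on collagen fibrils and influence how these assemble. Stroma rich in collagen and hyaluronan is a familiar feature of desmoplastic cancers, among them cholangiocarcinoma.

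Values are log2 units made by the authors with RMA, so a difference of 1 is a doubling. Array medians ran from 5.80 to 5.86 and lower quartiles from 4.22 to 4.32 over the 6 arrays, a number that limits precision. Levels of different probe sets are not comparable with each other, and the table carries no detection calls, so no gene could be called absent. The array also carries 3 probe sets for a control that was not added to the RNA, and on the TDECC arrays these gave 2.80 to 3.53. A TDECC reading near or below that range is not shown to be above background, so a difference from it is given as measured and its true size was not resolved. The 27 measured leukocyte, endothelial and hepatocyte markers had median levels of 4.19 in TDECC and 4.23 in TDESM. TDECC readings near that level are likewise not shown to be above background, also where this is not repeated below. Acta2 read 6.02, 6.10 and 7.71 on TDECC arrays 1 to 3 and 11.53, 11.67 and 11.60 on the TDESM arrays, in the direction its label gives. All 10 epithelial markers were lower in TDESM and 12 of 14 fibroblast markers were higher. Of 10 leukocyte markers 0 passed in limma (1 at an unadjusted p under 0.05), their summed level was 47.28 to 52.42 in TDECC and 47.68 to 50.24 in TDESM, and Ptprc (CD45) averaged 3.68 and 3.80. Of 8 endothelial, 5 mesothelial and 9 hepatocyte markers 1, 2 and 1 were higher in TDESM and 1 of each list was lower. Their part in the results was not tested. The median SD over all genes was 0.24 in TDECC and 0.12 in TDESM. In such bulk RNA, fewer cells of a type and less RNA per cell cannot be told apart.

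Between the strains, 5 of the 8 measured genes passed the test and all 5 were higher in TDESM. By the brightest probe set of each gene these were Bgn (124-fold), Vcan, Has2, Lum and Cd44 (2.22-fold), while another Vcan probe set gave a larger difference than Bgn. Dcn, Fmod and Hyal2 did not pass. The test was limma, TDESM minus TDECC, two-sided, with p-values adjusted over all 14217 genes by Benjamini-Hochberg and a threshold of 0.05. Of all genes, 22.1% passed in the higher direction, 20.6% in the lower and 42.7% in either. For 3 of the 8 genes TDESM exceeded TDECC by over 4, as for 2.38% of all genes, and the groups lay apart with TDESM higher for 6 of the 8, as for 27.3% of all genes. The median difference of the 8 genes was 2.0, against 0.0033 over all genes. In the fit over single probe sets 8 of the members' 13 passed, against 36.9% of all. No member passed as lower, also at an unadjusted p under 0.05 (0 genes) and with eBayes in trend and robust mode (0 genes). Arrays centred on added bacterial poly-A control transcripts instead gave 4 genes higher and 3 lower, against 898 higher and 10873 lower of all 14217 genes. This centring shifted the median of all genes by -1.22, and directions below are those of the values as deposited, which centre on the middle gene of each array.

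**Figure D1:**
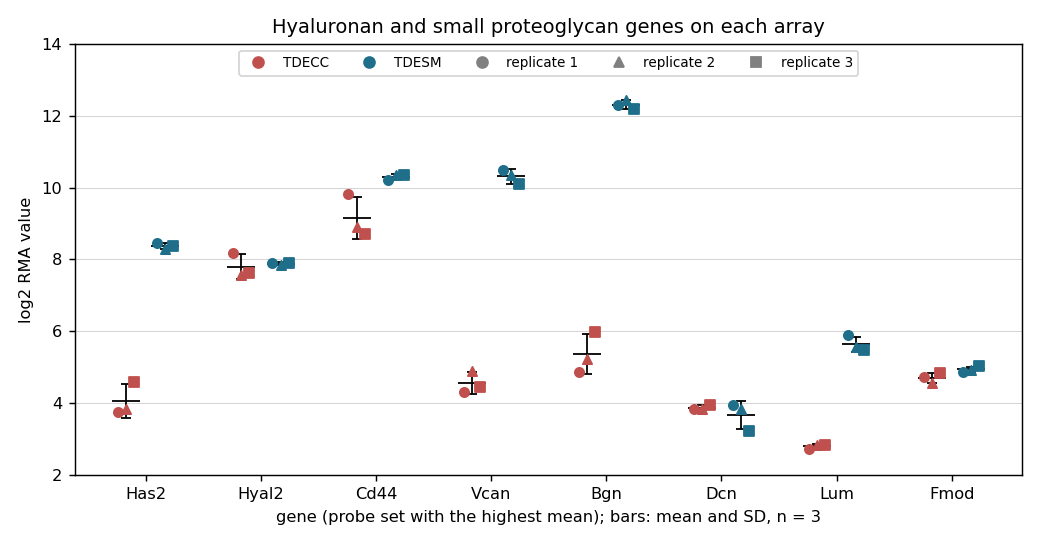
Log2 RMA values (vertical axis) of the 8 measured genes on each of the 6 arrays, TDECC in red and TDESM in blue, with the replicate given by the symbol and bars for the mean and SD (n = 3). Has2, Vcan, Bgn and Lum lie far apart between strains, whereas Hyal2 and Dcn overlap.

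The hyaluronan synthase Has2, the main synthase of many mesenchymal cells, read 3.76, 3.82 and 4.59 on TDECC arrays 1 to 3 and 8.47, 8.30 and 8.37 on TDESM arrays 1 to 3. Every TDESM array stood well above every TDECC array, and the highest TDECC reading was that of array 3. Its mean was 8.38 ± 0.09 (SD, n = 3) in TDESM and 4.06 ± 0.46 in TDECC, a log2 difference of 4.32 (95% interval 3.77 to 4.87), or 20.0-fold as measured. The TDECC readings of 3.76 and 3.82 lay near the control that was not added (2.80 to 3.53), so the size of this difference was not resolved. The limma adjusted p was 9.06e-06. Of all genes, 97.97% had a smaller signed difference.

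Hyal2, a hyaluronidase that is anchored at the cell surface and cuts long chains, read 8.19, 7.57 and 7.63 in TDECC and 7.91, 7.84 and 7.90 in TDESM. The groups overlapped, with TDECC array 1 above and the other two TDECC arrays below all TDESM arrays. The log2 difference was 0.087 (95% interval -0.35 to 0.52, limma adjusted p = 0.75). Its sign turned, to -0.056, with arrays centred on housekeeping genes, to -1.13 with poly-A controls and to -0.027 without TDECC replicate 2. The synthase and the hydrolase measured here thus stood 4.32 and 0.087 apart between the strains, which is a description of each gene's own difference and no test between them.

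Cd44, the main cell surface receptor of hyaluronan, had 2 probe sets. The brighter, 1387952_a_at, read 9.81, 8.91 and 8.72 in TDECC and 10.20, 10.35 and 10.34 in TDESM. TDECC array 1 came within 0.39 of the lowest TDESM array, while the other two TDECC arrays were lower. The log2 difference was 1.15 (SE 0.28, 95% interval 0.49 to 1.81, limma adjusted p = 0.0141). Dropping TDESM array 2 ended this call (1.12, limma adjusted p = 0.0555), as did dropping TDESM array 3 (1.13, limma adjusted p = 0.0560). With poly-A centring the sign turned, at -0.071. Leaving out TDECC replicate 1 gave 1.48.

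The second Cd44 probe set, 1368921_a_at, read 9.57, 8.66 and 8.64 in TDECC and 9.56, 9.57 and 9.77 in TDESM. Here the groups overlapped, since TDECC array 1 equalled TDESM array 2. The log2 difference was 0.68, with an adjusted p of 0.0840 in the limma fit over all 31042 probe sets, where the brighter probe set had 0.0156. Over that fit 17.9% of probe sets passed as higher. Both probe sets put TDECC array 1 highest in its strain, as Hyal2 did.

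Vcan, whose product carries chondroitin sulfate and binds hyaluronan, had 5 probe sets. The brightest, 1371232_a_at, read 4.30, 4.90 and 4.45 in TDECC and 10.49, 10.34 and 10.10 in TDESM, with the strains far apart. Its log2 difference was 5.76 (SE 0.19, 95% interval 5.30 to 6.22, limma adjusted p = 9.53e-07), or 54.2-fold as measured. The TDECC readings of 4.30 and 4.45 lay near the median level of the markers of other cell types (4.19 in TDECC), so this size was not resolved.

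The other Vcan probe sets did not all give this size. Probe set 1388142_at read 2.45, 2.96 and 2.88 in TDECC and 10.36, 10.41 and 10.07 in TDESM, a log2 difference of 7.52 from TDECC readings at the level of the control that was not added. Probe set 1388054_a_at gave 6.33 from TDECC readings of 4.37, 3.86 and 3.45, the lowest within the range of that control. Probe set 1388265_x_at, whose suffix marks probes shared with other transcripts, gave 3.92 from TDECC readings of 3.33, 3.75 and 3.27, near that control. By contrast 1371233_at read 3.49, 3.40 and 3.25 in TDECC and 3.75, 3.68 and 3.65 in TDESM. All 6 of its values were low, the difference was 0.31, and it did not pass (adjusted p = 0.0740, limma over all probe sets), although its groups did not overlap. The mean over the 5 probe sets differed by 4.77.

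**Figure D2:**
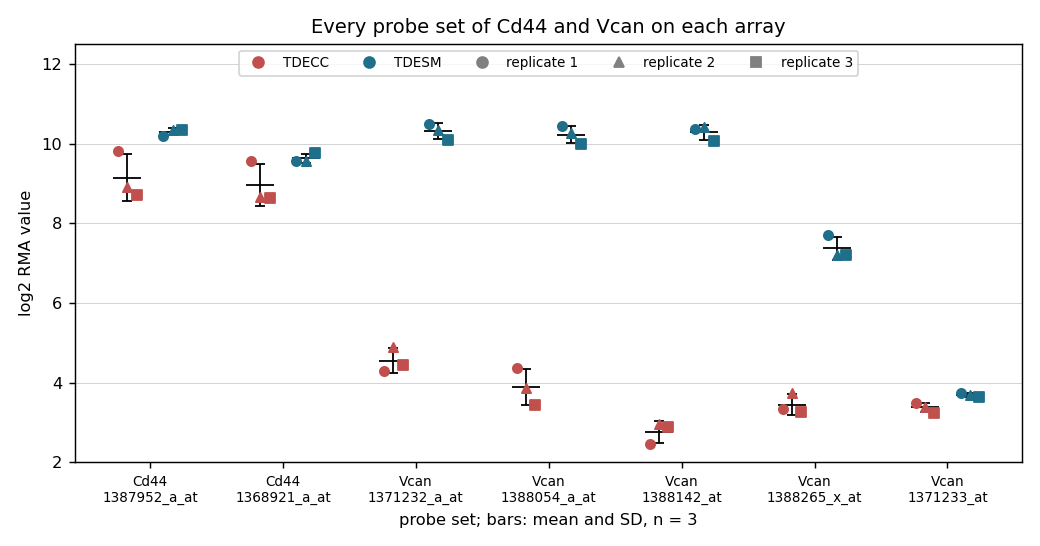
Log2 RMA values (vertical axis) of the 2 Cd44 and 5 Vcan probe sets on each array, TDECC in red and TDESM in blue, with bars for the mean and SD (n = 3). The Vcan probe sets other than 1371233_at separate the strains by 3.92 to 7.52 as measured, while that one stays between 3.25 and 3.75 on all arrays. Both ends come from TDECC readings near background, and the lowest TDECC reading of 1388054_a_at (3.45) was near it too.

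Among the 4 small leucine-rich proteoglycans of the set, Bgn had the largest difference. Biglycan carries chondroitin or dermatan sulfate chains and binds collagen. It read 4.87, 5.23 and 5.97 in TDECC and 12.31, 12.44 and 12.19 in TDESM. The groups were far apart, and TDECC array 3 was the highest of its strain. The log2 difference was 6.96 (SE 0.27, 95% interval 6.31 to 7.60, limma adjusted p = 1.92e-06), and 99.5% of all genes had a smaller signed difference.

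Dcn, decorin, is the closest relative of biglycan and a widely used fibroblast gene. Its single probe set read 3.83, 3.84 and 3.95 in TDECC and 3.95, 3.83 and 3.22 in TDESM. The groups overlapped and all 6 values lay below the arrays' lower quartiles. The 3.22 lay within the range of the control that was not added on the TDESM arrays (2.87 to 3.23). No reading of Dcn was shown to be above background, so the lack of a difference does not show equal expression. The log2 difference was -0.21 (95% interval -0.69 to 0.28, limma adjusted p = 0.468). TDESM array 3 was the lowest, and without it the difference was 0.017. With poly-A centring the difference was -1.43 and passed (limma adjusted p = 2.57e-04). That setting called 82.8% of all genes and put their median at -1.22.

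Lumican, which binds collagen fibrils and carries keratan sulfate in some tissues, read 2.73, 2.82 and 2.83 in TDECC and 5.88, 5.56 and 5.48 in TDESM. All TDESM arrays stood above all TDECC arrays, and the TDESM mean of 5.64 lay below the median of each array. The log2 difference of Lum was 2.85 (SE 0.14, 95% interval 2.51 to 3.18, limma adjusted p = 6.20e-06), or 7.19-fold as measured. Its TDECC readings were at or below the lowest values of the control that was not added, so the size of this difference was not resolved.

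Fmod, fibromodulin, a collagen-binding relative of lumican, read 4.72, 4.55 and 4.83 in TDECC and 4.87, 4.93 and 5.02 in TDESM. The groups did not overlap, by 0.04 between the nearest arrays, as for 53.6% of all genes. Fmod thus differed by 0.24 (log2, 95% interval -0.06 to 0.54, limma adjusted p = 0.174), or -0.98 with poly-A centring, where the sign turned. The exact two-sided permutation test over arrays gave p = 0.1 for Fmod and for each of the 5 genes that passed, the smallest p that 3 against 3 arrays allow. It gave p = 0.7 for Dcn and p = 0.9 for Hyal2 by the same exact test.

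**Figure D3:**
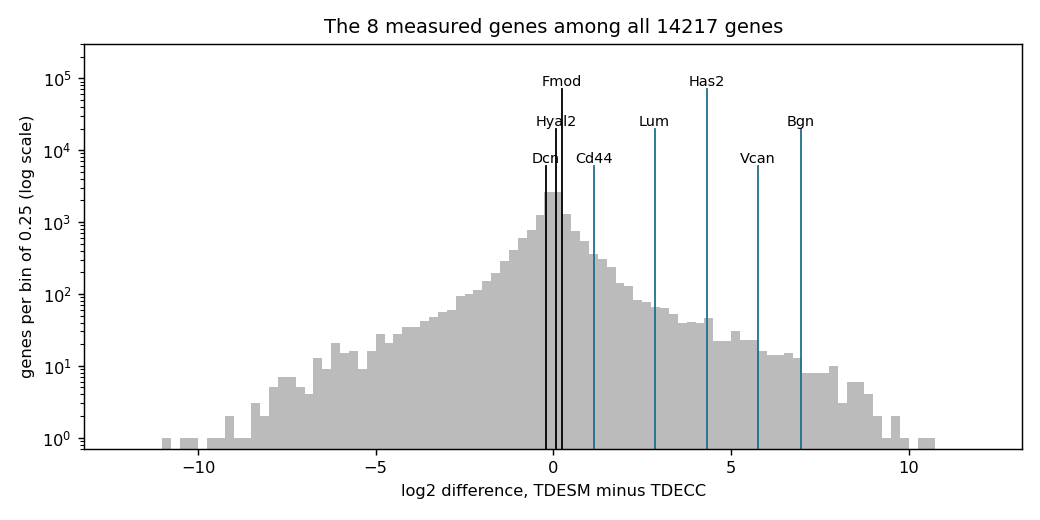
Histogram of the log2 difference, TDESM minus TDECC, over all 14217 genes (vertical axis: genes per bin, log scale), with a line at each of the 8 genes, blue where the gene passed an adjusted p of 0.05. Bgn at 6.96 and Vcan at 5.76 lie in the right tail, and Dcn, Hyal2 and Fmod lie between -0.21 and 0.24.

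The arrays of one strain did not vary alike over the members. For 6 of the 8 genes the SD was larger in TDECC, as for Hyal2 (0.34 against 0.04), Cd44 (0.58 against 0.08) and Has2 (0.46 against 0.09). The median SD over all genes was likewise larger in TDECC (0.24 against 0.12), so this is no trait of the members. Dcn (0.07 against 0.39) and Lum (0.06 against 0.21) varied more in TDESM. TDECC array 3, which read highest of its strain for Bgn and Has2, also had the highest Acta2. Over the 14 fibroblast markers its summed level was 80.52, against 78.63 and 77.79 on the other TDECC arrays and 168.46 to 169.98 in TDESM. Without that array the log2 differences were 7.26 for Bgn and 4.59 for Has2, against 6.96 and 4.32 with it. Whether these readings of the array are linked was not tested.

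Upstream sequences are shown for Vcan, Lum and Cd44, which were higher in TDESM, and for Fmod, the relative of Lum that did not pass. They come from RefSeq (build GRCr8), whose promoter table held 6 of the 10 genes and had no entry for Has2, Has3, Bgn or Dcn. Each is the 250 bases before the annotated start, 5′ to 3′ on the gene's strand, with capitals for a match to a motif searched on both strands. Vcan lies at chr2:22595956-22596205 (minus strand), Lum at chr7:34245456-34245705 (plus strand), Cd44 at chr3:109699425-109699674 (minus strand) and Fmod at chr13:48045317-48045566 (plus strand).
Vcan: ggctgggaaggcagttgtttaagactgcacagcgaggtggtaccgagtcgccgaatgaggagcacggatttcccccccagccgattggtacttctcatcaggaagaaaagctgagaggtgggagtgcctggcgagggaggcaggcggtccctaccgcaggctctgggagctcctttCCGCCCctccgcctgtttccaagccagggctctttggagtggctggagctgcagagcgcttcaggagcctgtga
Lum: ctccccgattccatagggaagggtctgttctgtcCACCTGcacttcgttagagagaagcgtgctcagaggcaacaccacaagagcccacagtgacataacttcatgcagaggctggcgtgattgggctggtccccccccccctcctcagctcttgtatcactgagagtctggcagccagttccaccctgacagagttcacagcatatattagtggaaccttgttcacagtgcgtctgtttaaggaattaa
Cd44: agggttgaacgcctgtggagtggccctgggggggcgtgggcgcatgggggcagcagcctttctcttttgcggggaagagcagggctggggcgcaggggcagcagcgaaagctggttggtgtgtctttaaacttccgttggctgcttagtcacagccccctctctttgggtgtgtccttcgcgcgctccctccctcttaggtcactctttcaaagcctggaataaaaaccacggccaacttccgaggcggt
Fmod: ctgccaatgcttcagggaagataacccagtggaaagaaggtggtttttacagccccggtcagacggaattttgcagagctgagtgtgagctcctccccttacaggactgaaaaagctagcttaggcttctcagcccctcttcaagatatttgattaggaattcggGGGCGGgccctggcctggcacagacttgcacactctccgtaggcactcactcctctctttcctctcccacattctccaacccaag
The motifs were TATAAA (a core promoter box), GGGCGG (GC box), CAGGTG (an E-box read by Snail and Zeb factors), TGACTCA (AP-1) and CATTCC (TEAD), searched over 300 bases from 250 before to 50 after the start. Vcan held a GC box on the reverse strand, from 74 to 69 bases upstream, and Fmod one on the forward strand, from 85 to 80 bases upstream. A GC box stood in 34.9% of all 27457 promoters. Lum held CAGGTG on the reverse strand, from 216 to 211 bases upstream, a motif of 18.7% of promoters. Cd44 had no match to these letters in the window. TATAAA (14.3% of promoters) and TGACTCA (4.5%) matched in none of the 6 members with an entry, and CATTCC (13.9%) in Hyal2 alone. The GC content of the 250 bases was 61.6% for Vcan and 60.8% for Cd44, and 52.8% each for Lum and Fmod, against a median of 52.0% over all promoters. These matches are descriptions and not evidence of binding.

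The wider pathway was read from 9 lists of 134 genes, of which 108 were measured. Of these, 47 (43.5%) were higher and 12 (11.1%) lower in TDESM, against 22.1% and 20.6% of all genes. With poly-A centring 21 were higher and 59 lower, against 898 and 10873 of all 14217 genes. The poly-A counts of single lists below are to be read against that background. Their counts with the deposited values are to be read against the 22.1% and 20.6% of all genes. The higher genes included 13 of 20 in the list of linkage, chondroitin and dermatan sulfate synthesis and 1 of 6 in the list of hyaluronan precursors.

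Of 6 measured genes for hyaluronan's sugar precursors, 1 was higher and 1 lower (16.7% each), with a median difference of -0.038. Ugdh, which makes the UDP-glucuronic acid used by hyaluronan synthases, read 10.37, 10.48 and 10.65 in TDECC and 11.16, 11.08 and 11.04 in TDESM. Its log2 difference was 0.59 (limma adjusted p = 0.0074), or -0.63 with poly-A centring, where the sign turned. Gnpnat1, an acetyltransferase on the way to UDP-N-acetylglucosamine, differed by -0.94 (limma adjusted p = 0.0070). No precursor gene had a difference as large as that of Has2, and with poly-A centring 0 were higher and 5 lower.

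Among 6 measured genes of hyaluronan breakdown, 2 were higher (33.3%) and 1 lower (16.7%). Cemip2, a transmembrane hyaluronan-degrading protein, read 9.17, 9.90 and 10.51 in TDECC and 6.96, 6.79 and 6.69 in TDESM, a log2 difference, TDESM minus TDECC, of -3.05 (SE 0.32, limma adjusted p = 2.79e-04). The lysosomal enzyme Gusb, beta-glucuronidase, differed by 0.89 and Hyal3 by 1.28 (0.66 by its other probe set). With poly-A centring Gusb turned to -0.33 and Hyal3 stood at 0.059, no longer past the threshold. The median of this list was 0.13, or -0.018 when centred on housekeeping genes. With poly-A centring it was -1.10, with 0 higher and 4 lower.

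Proteins that bind hyaluronan gave 3 higher (16.7%) and 0 lower of 18 measured, against 22.1% and 20.6% of all genes. There were 0 lower also at an unadjusted p under 0.05 by limma and with trend and robust eBayes. Centring on housekeeping genes gave 1 lower and poly-A centring 15 lower. Tnfaip6, the secreted protein TSG-6 that links heavy chains to hyaluronan, read 3.40, 3.62 and 3.27 in TDECC and 11.63, 11.55 and 11.53 in TDESM. Its log2 difference was 8.14, from TDECC readings at the level of the control that was not added. Its second probe set gave 3.83, from TDECC readings of 3.66 to 3.83, near that control. Acan, aggrecan, a large hyaluronan-binding proteoglycan related to versican, differed by 5.63 and by 6.78 with its other probe set. Habp4, an intracellular protein with hyaluronan-binding motifs, differed by 1.15 (limma adjusted p = 0.0217), or -0.068 with poly-A centring. Habp4 no longer passed when TDECC array 3 was dropped (limma adjusted p = 0.0592) or any 1 TDESM array (limma adjusted p = 0.0571, 0.0695 and 0.0813). The remaining 15 genes, among them the receptors Lyve1, Stab1 and Stab2, the receptor Hmmr and the link proteins Hapln1 to Hapln4, did not pass.

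Of 10 other small leucine-rich proteoglycans measured, 5 (50%) were higher and 0 lower in TDESM by limma, and the median difference was 0.95. There were 0 lower also at an unadjusted p under 0.05 and with trend and robust eBayes, but 2 higher and 4 lower with poly-A centring. Ogn, osteoglycin, read 3.39, 3.74 and 4.28 in TDECC and 10.13, 9.28 and 9.04 in TDESM, a log2 difference of 5.68. Its 4 probe sets gave 5.10 to 7.30. TDECC was near background in the other 3, and the reading of 3.39 in this one was too. Podnl1, podocan-like 1, differed by 2.90 and Omd, osteomodulin, by 1.68 (0.46 with poly-A centring, not past the threshold). Aspn (1.34) and Podn (0.79), the other two that passed, are named after their values were seen. With poly-A centring Aspn stood at 0.12 and the sign of Podn turned, at -0.43.

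Of 18 measured genes for other proteoglycan cores, 7 were higher (38.9%) and 4 lower (22.2%). Among the syndecans, which are heparan sulfate proteoglycans that span the membrane, Sdc2 was higher, Sdc1 (-1.09) and Sdc4 were lower and Sdc3 did not pass. When all probe sets of a gene were averaged, the list had 7 higher and 3 lower, and Sdc1, with 2 probe sets, no longer passed. Sdc2, syndecan 2, read 3.89, 4.46 and 4.59 in TDECC and 12.12, 12.24 and 12.10 in TDESM. Its log2 difference was 7.84 (limma adjusted p = 3.33e-07). The TDECC reading of 3.89 lay below the median level of the markers of other cell types (4.19 in TDECC), so this size was not resolved. The other Sdc2 probe sets gave 7.96 and 9.08, from TDECC readings of 2.71 to 3.05, at or below the control that was not added. Sdc4, syndecan 4, read 12.54, 13.14 and 13.78 in TDECC and 11.65, 11.82 and 11.87 in TDESM, a log2 difference of -1.37 (limma adjusted p = 0.0085).

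Of 5 measured glypicans, which are anchored to the membrane by a lipid, 4 were higher and Gpc2 did not pass. Gpc3 differed by 1.61 and Gpc4 by 1.51 (0.39 and 0.29 with poly-A centring, not past the threshold). Gpc1 differed by 6.87 and Gpc6 by 5.46, the latter by 2.16 when its 4 probe sets were averaged and from TDECC readings (3.51 to 3.59) near background. The other Gpc6 probe sets gave 2.60, 0.50 and 0.093. For the last of these the groups overlapped and it did not pass (adjusted p = 0.603, limma over all probe sets). Agrn, agrin, and Col18a1, a basement membrane collagen with heparan sulfate chains, differed by -2.27 and -2.89. Thus heparan sulfate proteoglycans of the basement membrane stood lower in TDESM in these 2 genes, while Hspg2, perlecan, likewise named with its values known, did not pass, with means of 8.69 in TDECC and 8.59 in TDESM. With poly-A centring the list had 4 higher and 11 lower.

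The list of enzymes for the linkage sugar and the chondroitin or dermatan sulfate chains, which versican, biglycan and decorin carry, had 20 measured genes. Of these, 13 (65%) were higher and 0 lower, against 22.1% and 20.6% of all genes, and the median difference was 1.46. The 13 included B4galt7, B3galt6 and Fam20b of the linkage region, which heparan sulfate shares, and Papss2, which makes the general sulfate donor. With poly-A centring B4galt7 (0.17) and B3galt6 (0.30) no longer passed, Fam20b turned to -0.0079 and Papss2 stood at 1.34. These genes, and Sdc1, Gpc3 and Gpc4, are named after their values were seen. At an unadjusted p under 0.05 in limma 1 was lower, and with trend and robust eBayes 0. Centred on housekeeping genes 13 were higher and 2 lower, and centred on poly-A controls 6 and 7. Csgalnact1, which starts the chondroitin chain, read 4.14, 4.57 and 4.26 in TDECC and 9.21, 9.23 and 9.22 in TDESM, a log2 difference of 4.90 (limma adjusted p = 5.88e-07). Its TDECC readings lay near the median level of the markers of other cell types (4.19 in TDECC), so this size was not resolved. Dsel, related to the epimerase that turns chondroitin into dermatan sulfate, differed by 4.54, and the chain-extending Chsy3 by 4.28, both from TDECC readings (2.48 to 3.34) at or below the control that was not added. Other genes that passed included Chsy1 (3.46) and Chst14 (3.30), the latter a dermatan 4-O-sulfotransferase, chosen after their values were seen.

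Heparan sulfate synthesis and editing gave 8 higher (50%) and 3 lower (18.8%) of 16 measured. Hs3st1, which adds a rare 3-O-sulfate, read 9.35, 10.33 and 10.73 in TDECC and 4.16, 4.19 and 3.97 in TDESM, a log2 difference of -6.03 (limma adjusted p = 1.05e-05). Heparanase, Hpse, which cuts the chains, differed by -3.02, and Sulf2, which removes 6-O-sulfates outside the cell, by -1.30. In the other direction Hs6st2, a 6-O-sulfotransferase, differed by 3.63 from TDECC readings near background, Extl2 by 2.79 and the chain polymerase subunit Ext2 by 2.0. The other Extl2 probe set gave 1.34, from TDECC readings of 2.45 to 3.34, at or below the control that was not added. With poly-A centring the list had 3 higher and 7 lower.

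**Figure D4:**
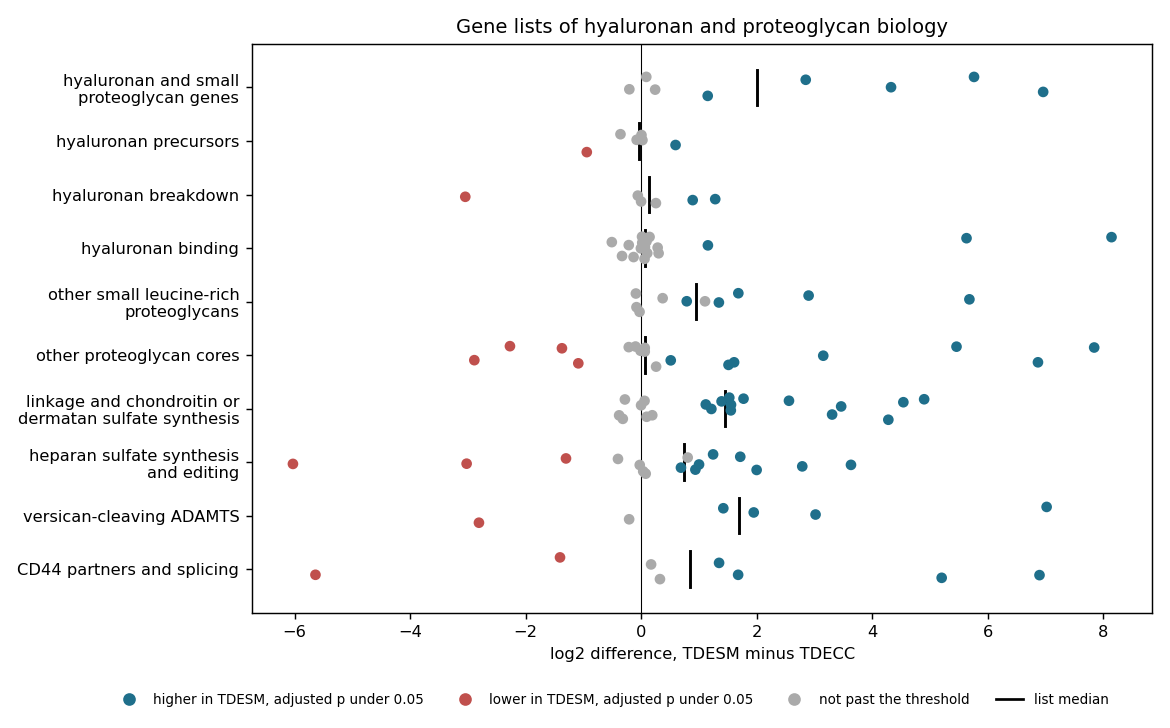
Log2 difference, TDESM minus TDECC (horizontal axis), of every measured gene of the 8-gene set and of 9 lists, 1 point a gene, blue if higher and red if lower in TDESM at an adjusted p of 0.05, grey otherwise, with a black bar at each list's median. The chondroitin and dermatan sulfate list has 13 blue (65%) and 0 red points, against 22.1% higher and 20.6% lower of all genes. Poly-A centring gave it 6 higher and 7 lower, against 898 and 10873 of all genes. The hyaluronan precursor points lie between -0.94 and 0.59.

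Of 6 measured ADAMTS proteases known to cleave versican or aggrecan, 4 were higher (66.7%) and 1 lower (16.7%), and with poly-A centring 2 and 2. Adamts1 read 3.43, 4.11 and 5.18 in TDECC and 11.33, 11.40 and 11.04 in TDESM, and the difference was 7.02 (SE 0.41, limma adjusted p = 1.39e-05). Its lowest TDECC reading lay within the range of the control that was not added. Adamts9 differed by 3.02 (1.69 when its probe sets were averaged), and Adamts4 by 1.95 (0.73 with poly-A centring, not past the threshold). The other Adamts9 probe set gave 0.37 and did not pass (adjusted p = 0.105, limma over all probe sets). Adamts15 differed by -2.81 with a wide spread in TDECC, where it read 6.98, 9.09 and 7.64.

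Of 8 measured partners and splicing regulators of Cd44, 4 were higher (50%) and 2 lower (25%), but 2 higher and 4 lower with poly-A centring. Esrp1, an epithelial splicing factor that promotes inclusion of variable Cd44 exons, read 10.81, 10.98 and 10.51 in TDECC and 5.12, 5.11 and 5.15 in TDESM, a log2 difference of -5.64 (limma adjusted p = 3.94e-07). The deposited values do not separate Cd44 isoforms. The proteins that tie Cd44 to actin differed in direction. Rdx, radixin, was higher by 6.89, and its other 4 probe sets gave 3.08 to 5.66. For the 6.89, the lowest TDECC reading was 3.44, within the range of the control that was not added. Msn, moesin, was higher by 1.68 (0.46 with poly-A centring, not past the threshold), and Ezr, ezrin, differed by -1.41. Spp1, osteopontin, a secreted ligand of Cd44, was higher by 5.20.

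**Figure D5:**
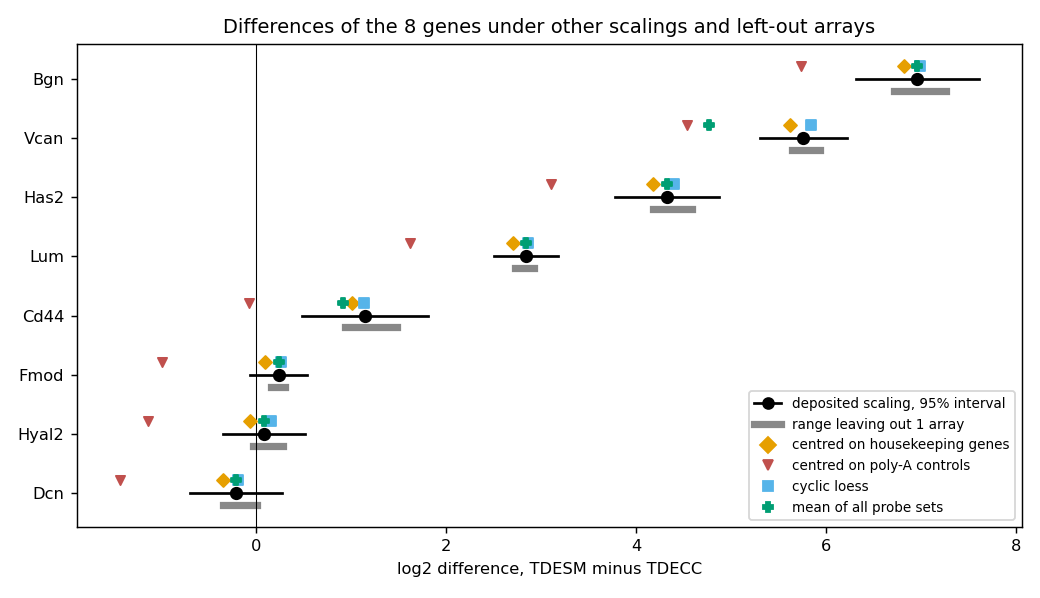
Log2 difference, TDESM minus TDECC (horizontal axis), of the 8 genes with the deposited scaling (black point, 95% interval), the range leaving out 1 array at a time (grey bar) and 4 other settings (coloured symbols). Bgn, Vcan, Has2 and Lum stay above 0 in every setting shown, whereas Cd44, Fmod and Hyal2 turn negative with poly-A centring, at -0.071, -0.98 and -1.13.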

How the data were processed

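RNA was measured on 6 arrays, 3 per strain, grouped by sample title. The deposited values are on a log2 scale. The authors summarised them by RMA, per the submitters' processing notes. The RMA version and settings are not given in the sources used here. This method normally forces all arrays to one distribution, so a strain difference in total mRNA would not show. Of the deposited probe sets those with 1 symbol (20826) were kept. The probe set brightest on average over the 6 arrays stood for its gene, which gave 14217 genes (4525 with several probe sets). Symbols matched RefSeq by Entrez identifier for 99.7% of these probe sets and 0 changed. Genes were tested with limma 3.58.1 in R 4.3.3 (lmFit, eBayes, Benjamini-Hochberg, no replicate block). Members' probe sets were tested in a fit over all 31042 probe sets. The steps were tested on simulated data. Poly-A centring used 24 control probe sets and housekeeping centring 18 genes. Other alternatives were cyclic loess, leaving out the dimmest 33.3% of genes or each array, the mean of all probe sets, trend and robust eBayes, the replicate block and a minimum difference of 1. The members and lists were chosen with earlier results of these data known. Besides the members, up to 3 genes per list and direction were named, by size among those that passed without overlap.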

Additional observations from a re-analysis of the deposited data

How the results depend on the processing

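The members higher in TDESM numbered 4 or 5 in all alternatives and leaving out each array in turn (4 to 5), Cd44 being the one lost, except that without the dimmest genes Lum was not tested, and 0 members were lower in any of them but the poly-A centring, which gave 3. With that centring 898 of all genes were higher and 10873 lower (82.8% called), and its adjusted p-values mostly follow the size of a difference, because the centring adds the same spread to every gene. A minimum log2 difference of 1 gave 1066 and 882, and testing every probe set gave 5559 and 5911 probe sets. For the pathway lists, poly-A centring gave 21 higher and 59 lower, and the minimum difference 25 higher. Leaving out 1 array gave 2474 to 3425 genes higher and 2131 to 3035 lower. Signs turned with poly-A centring for Cd44 (-0.071), Fmod (-0.98), Hyal2 (-1.13), Ugdh (-0.63), Gusb (-0.33) and Habp4 (-0.068), and with housekeeping centring, which shifts the median gene by -0.14, for Hyal2 (-0.056). Leaving out 1 array, Hyal2 ranged from -0.027 to 0.28 and Dcn from -0.35 to 0.017. Other causes of these moves were not tested.

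The replicate numbers are shared between strains, but deviations of same-numbered arrays correlated at -0.07, 0.02 and -0.14, so the numbers were not taken as pairs. With the replicate number as a block, 2750 genes were higher and 2592 lower, with 5 members higher (Cd44 adjusted p = 0.0226, limma) and 47 list genes higher and 12 lower. Only 3 arrays per strain and dim readings, such as those of Dcn, limit what these data can show.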
